A study of Mus musculus with 10 samples.

Results

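The tubulin folding cofactors are 6 genes, Tbcel, Tbce, Tbca, Tbcb, Tbcc and Tbcd, taken here from the 47729 gene rows of an RNA-seq count table. The RNA came from the mouse RPE (retinal pigment epithelium), a sheet of cells behind the photoreceptors. The family was listed by name, while Tbcel was chosen by its fold change between Nrf2 and control eyes in these same libraries, so that its difference is described below without a test. All 6 genes had a row and all 6 were among the 16362 genes with enough reads to be tested. The libraries came from 5 wild-type CD1 mice at postnatal day 40. In each mouse, 1 eye received AAV-Best1-Nrf2 together with AAV-Best1-GFP (Nrf2 eyes) and the other eye received AAV-Best1-GFP alone (GFP control eyes), which gave 5 pairs and 10 libraries.

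Both vectors used the human Best1 promoter, which is active in the RPE, and the Nrf2 vector carried the human coding sequence. The Nrf2 eyes received an additional vector, and no eye analysed here received the same amount of another vector in its place, so that NRF2 and the load of vector cannot be told apart. RNA was taken from the lysate of an eyecup without retina, not from sorted cells, and was amplified before sequencing. A library held 12298404 to 27310638 counts, so that the smallest amount read here as detected, 3 counts, stood for 0.110 to 0.244 CPM (counts of a gene per 1000000 counts of the library). Library totals did not differ between the eyes of a mouse beyond the spread between mice (mean log2 ratio 0.10, exact paired permutation p = 0.75, two-sided, where 5 pairs allow no p below 0.063). Nfe2l2, the mouse gene for NRF2, had 79.3 to 109.6 CPM in the GFP control eyes and 267.2 to 414.4 CPM in the Nrf2 eyes, and it was higher in the Nrf2 eye of 5 of 5 mice (log2 fold change 1.97 ± 0.11 SE, adjusted p = 0.000299 with edgeR). These counts cannot say how much of this came from the human sequence.

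Cell type markers also moved with the groups. The defining RPE genes were abundant in the control eyes, where Rpe65, the isomerase of the visual cycle, averaged 3492 CPM, although Best1 itself averaged only 0.766 CPM. Of 10 RPE markers 5 passed an adjusted p of 0.05 as lower in the Nrf2 eyes, against 2.73% of all tested genes. These were Rpe65, Rlbp1, Lrat, Rgr and Otx2. Another 4, Best1, Ttr, Pmel and Tyrp1, had fitted log2 fold changes above 0 and did not pass. The sum of all 10 ran from 20790 to 41910 CPM in control and from 10580 to 28160 CPM in Nrf2 eyes. Ttr, the most abundant of them, averaged 11540 CPM in control and 11750 CPM in Nrf2 eyes. Of 12 microglia and macrophage markers 11 passed as higher, against 3.6% of all tested genes, with a summed level of 173.6 to 292.1 CPM in control and 435.3 to 2173 CPM in Nrf2 eyes. The exception was Csf1r, which averaged 196.5 CPM in control eyes, most of the control sum, and 142.2 CPM in Nrf2 eyes, so that the sum moved less than the other markers. Rod markers, which come from retina carried over, summed to 20100 CPM in the control eye and 7834 CPM in the Nrf2 eye of mouse 2, against 159.4 to 3115 CPM in the other control eyes and 306.1 to 501.7 CPM in the other Nrf2 eyes. None of the 9 tested rod markers passed the threshold in edgeR, and 1, Rp1, had an unadjusted p under 0.05. None of 8 cone markers passed either, although 7 had lower fitted values and 3, Opn1sw, Gnat2 and Pde6h, had an unadjusted p under 0.05, and of 5 melanocyte markers Sox10 passed as lower (adjusted p = 0.00291 in edgeR). In bulk RNA, fewer cells of a type and less RNA per cell cannot be told apart.

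Alpha and beta tubulin are not stable as single folded chains. They pass from prefoldin to the ring-shaped chaperonin CCT and then to the cofactors: TBCB and TBCE bind alpha tubulin, TBCA and TBCD bind beta tubulin, and TBCC joins the assembly of TBCD and TBCE and sets off the hydrolysis of GTP that frees the finished dimer. TBCE can also take a dimer apart, and TBCEL, whose name stands for tubulin folding cofactor E-like, is a relative of TBCE that destabilises tubulin when it is made in excess. In the RPE, microtubules carry the ingested tips of photoreceptor outer segments and, in pigmented eyes, pigment granules. NRF2 is a transcription factor that binds, with a small MAF partner, a short DNA sequence called the antioxidant response element.

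The promoters are shown because the delivered factor binds DNA at a known element, whose core was searched on both strands as TGACNNNGC, with TGACTCAGC as the form held by a full NRF2 and small MAF site. RefSeq lists 8 starts for the 6 genes (mouse build GRCm38.p6), 3 of them for Tbcel and 1 for each of the others, and each window runs from 250 bases before the start to 50 bases after it. Below are the bases before the 3 starts of Tbcel and, for comparison, the start of its closest relative Tbce, with matches to the core in capitals. All 4 lie on the minus strand and are written 5′ to 3′ along the gene, and the windows of starts 1 and 2 stop where annotated Tbcel exons begin or at the end of a match. Their positions are chr9:42472262-42472488, chr9:42461462-42461678 and chr9:42457601-42457850 for Tbcel and chr13:14039639-14039888 for Tbce.
Tbcel start 1: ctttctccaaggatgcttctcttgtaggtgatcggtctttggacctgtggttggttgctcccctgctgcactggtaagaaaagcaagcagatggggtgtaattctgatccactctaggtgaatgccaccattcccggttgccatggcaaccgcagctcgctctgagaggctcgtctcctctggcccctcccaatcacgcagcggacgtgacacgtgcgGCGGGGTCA
Tbcel start 2: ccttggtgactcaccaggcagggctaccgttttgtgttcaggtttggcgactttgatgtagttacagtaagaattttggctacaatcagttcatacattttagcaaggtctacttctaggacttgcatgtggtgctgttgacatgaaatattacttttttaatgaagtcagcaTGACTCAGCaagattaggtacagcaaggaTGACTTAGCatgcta
Tbcel start 3: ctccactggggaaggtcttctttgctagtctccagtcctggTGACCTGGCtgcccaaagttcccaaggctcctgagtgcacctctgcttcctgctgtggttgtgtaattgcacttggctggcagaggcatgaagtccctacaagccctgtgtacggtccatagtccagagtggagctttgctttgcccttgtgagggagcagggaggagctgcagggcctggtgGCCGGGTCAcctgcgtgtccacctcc
Tbce: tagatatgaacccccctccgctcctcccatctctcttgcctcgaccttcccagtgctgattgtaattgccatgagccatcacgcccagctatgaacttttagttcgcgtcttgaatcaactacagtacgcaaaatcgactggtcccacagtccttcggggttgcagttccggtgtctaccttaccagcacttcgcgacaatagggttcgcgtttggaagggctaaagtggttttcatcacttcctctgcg

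Each of the 3 Tbcel windows held the core. In start 1 it read GCGGGGTCA, the minus-strand form, at bases -32 to -24 from the start. In start 2 it was present in 2 copies on the strand of the gene, TGACTCAGC at -77 to -69 and TGACTTAGC at -48 to -40, and the first of these is also the full site. In start 3 the copies were TGACCTGGC at -209 to -201 and, on the minus strand, GCCGGGTCA at -26 to -18. The single windows of Tbce, Tbca, Tbcb, Tbcc and Tbcd held no match to the core. The Tbcb window does not lie at the annotated start of its transcripts, as its RefSeq start is 881 bases from that of the nearest coding transcript.

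Over all 32851 RefSeq promoter windows of the same length, 12.4% held the core and 0.454% held TGACTCAGC. A gene with more windows has more chances, and of 721 genes with 3 windows 28.0% held the core in at least 1 window, 2.08% in all 3, and 1.53% held TGACTCAGC. Among genes with a single window, 12.3% held the core. A match to these letters is not a measured binding site, and a window without a match says nothing about the factor. Start 1 lies 20 bases from the start of an annotated transcript with a coding length of 1272 bases. Start 2 lies 33 bases from that of the transcript with the longest coding length, 1326 bases, and start 3 lies 1 base from that of another transcript of 1272 coding bases. The counts are per gene and do not say which start was used.

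**Figure D1:**
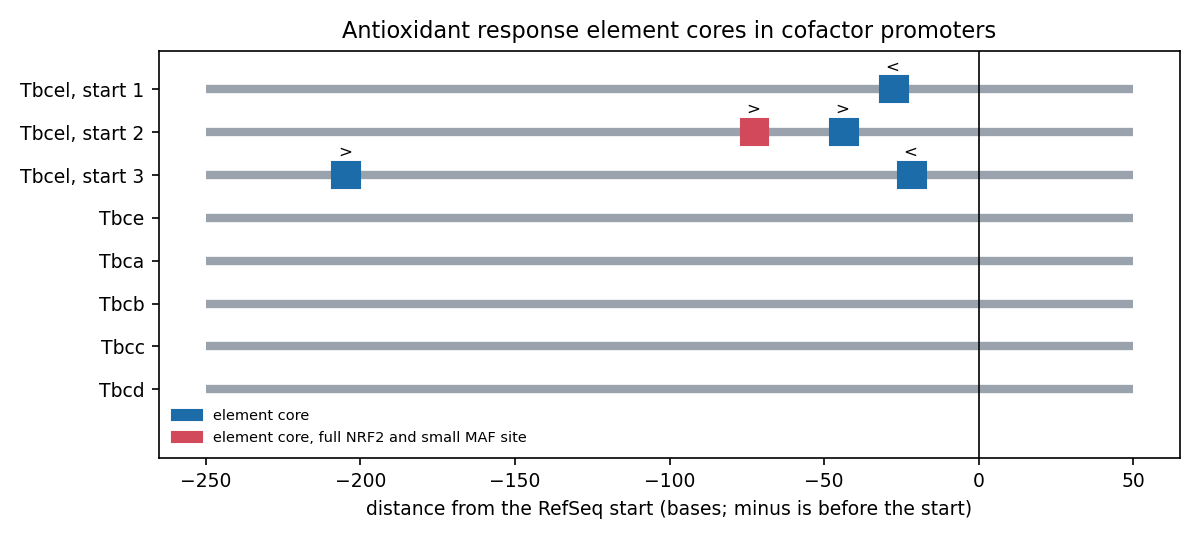
Positions of the antioxidant response element core in the 8 RefSeq promoter windows of the tubulin cofactors. The horizontal axis is the distance from the start in bases, each grey line is a window, blue boxes are matches to the core, the red box is the match that is also a full site, and arrowheads give the strand relative to the gene. All 5 matches lie before the 3 starts of Tbcel, and the 5 lower windows are empty.

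Tbcel (ENSMUSG00000037287) is a protein-coding gene of 8 annotated transcripts at chr9:42412316-42507809 on the minus strand of mm10. It had 887, 453, 377, 528 and 751 counts in the GFP control eyes of mice 1 to 5 and 6589, 6439, 7504, 3335 and 3839 counts in their Nrf2 eyes. Scaled to CPM these were 45.2, 27.9, 26.3, 31.5 and 27.5 CPM in control eyes and 300.1, 261.9, 282.2, 271.2 and 233.1 CPM in Nrf2 eyes. Every Nrf2 eye was above every control eye, and the control eye of mouse 1 was the highest of its group. Within mice, the Nrf2 eye had 6.97, 9.26, 10.8, 8.20 and 7.94 times the control eye after normalisation. Mean levels were 31.7 ± 7.82 CPM and 269.7 ± 24.9 CPM (SD, n = 5), and the fitted log2 fold change was 3.10 ± 0.11 SE, which is 8.56-fold.

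Groups without overlap were found for 6.28% of all tested genes, and 6.33% passed an adjusted p of 0.05 in edgeR, 3.6% higher and 2.73% lower in the Nrf2 eyes. Tbcel was chosen with this difference known, and nothing is read from it against these shares. Of the 16362 tested genes, 170 had a larger log2 fold change. Relative to the mean, the spread was 24.7% in control eyes and 9.24% in Nrf2 eyes. The within-mouse ratio was lowest in mouse 1, whose control eye had the most Tbcel, and highest in mouse 3, whose control eye had the least. The control value is the denominator of this ratio, so that such an inverse relation is partly built in.

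The cell type markers moved in the same libraries, and their part in the Tbcel difference was not tested except through the rod markers. With the rod marker level as a covariate the log2 fold change of Tbcel was 3.08, and without mouse 2, whose eyes had the most rod RNA, it was 3.11. In the Nrf2 eyes of mice 1 to 5 Tbcel was at 300.1, 261.9, 282.2, 271.2 and 233.1 CPM. The microglia and macrophage sums of these eyes were 1020, 435.3, 770.6, 1277 and 2173 CPM. Their RPE marker sums were 18650, 10580, 28160, 15580 and 12140 CPM. Only 0.082% of the Tbcel 31-base words were shared with another gene on the same strand and 0.529% with one on the opposite strand, and none was shared with another cofactor.

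**Figure D2:**
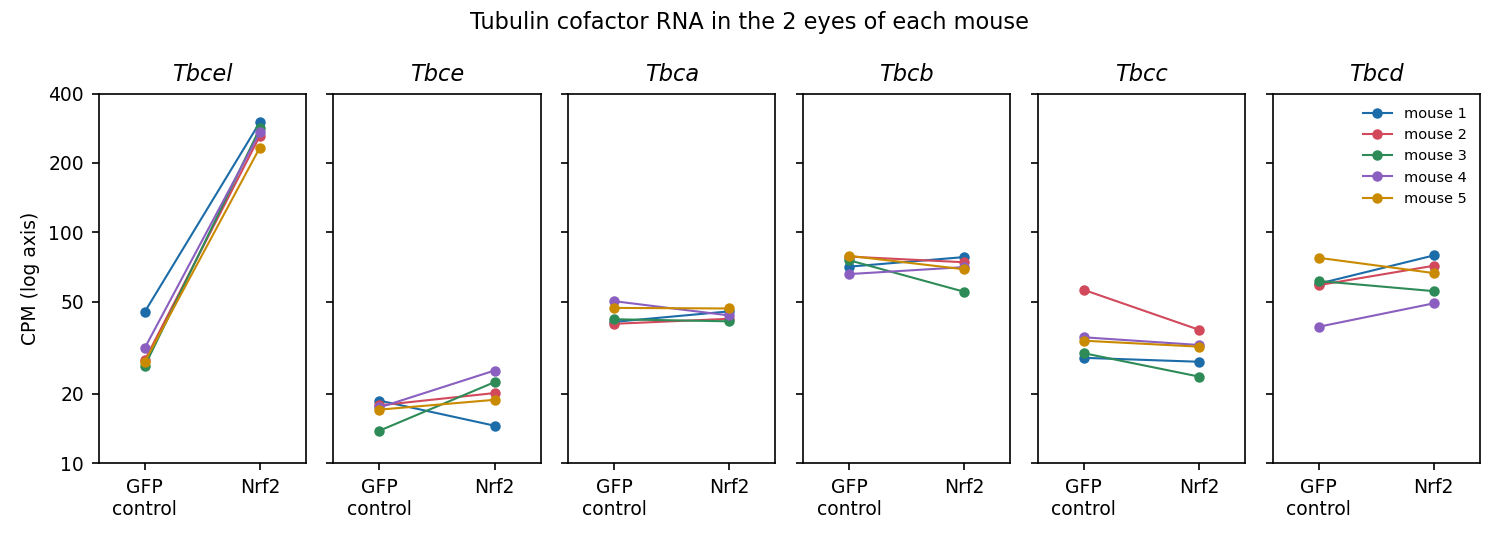
RNA of the 6 tubulin cofactors in CPM (vertical axis, log scale) in the GFP control eye and the Nrf2 eye of each of 5 mice. Points are single libraries and lines join the 2 eyes of a mouse. The Nrf2 eyes lie between 233.1 and 300.1 CPM for Tbcel, above control eyes at 26.3 to 45.2 CPM, while the groups overlap for the other 5 genes.

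None of the other 5 cofactors passed the threshold in edgeR (0 of 5, against 6.33% of all tested genes), none had an unadjusted p under 0.05, and DESeq2, which called 9.25% of the genes it tested, called 0 of 5 with a lowest adjusted p of 0.467. For each of them the control and Nrf2 values overlapped. Their log2 fold changes ran from -0.25 to 0.22, and these results do not show that the 5 genes were unchanged.

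Tbce (ENSMUSG00000039233, chr13:13997949-14039638, minus strand), the alpha tubulin cofactor to which Tbcel is related, had 18.7, 17.8, 13.8, 17.4 and 17.1 CPM in the control eyes of mice 1 to 5. In their Nrf2 eyes it had 14.5, 20.1, 22.5, 25.2 and 18.8 CPM. It was higher in the Nrf2 eye of 4 of 5 mice and lower in mouse 1. The means were 16.96 ± 1.85 and 20.2 ± 4.01 CPM (SD, n = 5), and the fitted log2 change was 0.22 ± 0.17 SE, with an adjusted p of 0.573 in edgeR. Leaving out mouse 1 gave 0.38 (adjusted p = 0.238) and the rod covariate gave 0.11. Tbce shares 8.87% of its 31-base words with genes on the opposite strand, most of them with B3galnt2, whose last exons overlap it.

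Tbcb (ENSMUSG00000006095, chr7:30224131-30232272, minus strand), the cofactor that works with TBCE on alpha tubulin, had the most CPM of the family in control eyes. Its values were 71.1, 78.6, 75.8, 66.0 and 79.2 CPM in control eyes and 78.2, 74.3, 55.3, 70.7 and 69.2 CPM in Nrf2 eyes of mice 1 to 5. The Nrf2 eye of mouse 3 was the lowest of the 10 libraries. The fitted log2 change was -0.11 ± 0.11 SE, at an adjusted p of 0.699 in edgeR, with 3 of 5 mice lower, and it was 0.03 without mouse 3. Of its 31-base words 20.5% lie opposite to Polr2i, a subunit of RNA polymerase II.

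Tbca (ENSMUSG00000042043, chr13:94788910-94842922, plus strand), which holds beta tubulin after it leaves CCT, was the least variable of the family in the Nrf2 eyes. It had 41.0, 40.2, 42.04, 50.4 and 47.1 CPM in control eyes and 45.5, 42.3, 41.2, 43.7 and 46.8 CPM in Nrf2 eyes. The fitted log2 change was -0.02 ± 0.08 SE, at an adjusted p of 0.959 in edgeR and its sign depended on which mice were kept. Its count is uncertain in level, since 25.3% of its 31-base words recur on the same strand in other annotated genes, mainly Gm6142 and Gm4374, and reads could be split between them.

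Tbcd (ENSMUSG00000039230, chr11:121451949-121617164, plus strand), the large beta tubulin cofactor and the longest gene of the family, varied more. It had 59.9, 59.1, 61.6, 39.0 and 77.6 CPM in control eyes and 79.5, 71.7, 55.7, 49.3 and 66.7 CPM in Nrf2 eyes. Mouse 4 was the lowest in both groups. The fitted log2 change was 0.12 ± 0.15 SE, at an adjusted p of 0.747 in edgeR, and 3 of 5 mice were higher. It moved to 0.06 without mouse 1, 0.24 without mouse 3 and 0.22 without mouse 5.

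Tbcc (ENSMUSG00000036430, chr17:46890684-46891847, plus strand), the activator of GTP hydrolysis and a gene of 1 exon, had the most negative value. It had 28.6, 56.4, 30.0, 35.1 and 33.9 CPM in control eyes and 27.5, 37.9, 23.7, 32.5 and 31.99 CPM in Nrf2 eyes. In each group mouse 2 was the highest, the mouse whose eyes had the most rod RNA. The fitted log2 change was -0.25 ± 0.10 SE, at an adjusted p of 0.299 in edgeR, with 4 of 5 mice lower after normalisation. Without mouse 2 it was -0.13 (adjusted p = 0.796), and the part of carried-over retina in this value was tested only by the rod covariate, which gave -0.23 (adjusted p = 0.559).

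Set against its family within each mouse, the log2 ratio of Tbcel exceeded the median of the other 5 by 2.59, 3.15, 3.56, 3.00 and 3.16 in mice 1 to 5 (mean 3.09 ± 0.35 SD). The median of the other 5 ran from -0.17 to 0.21. The highest ratio of another cofactor in any mouse was 0.71, for Tbce in mouse 3, against a lowest Tbcel ratio of 2.80. The lowest was -0.59, for Tbcc in mouse 2. The other cofactors did not hold 1 order across mice: Tbcd had the highest ratio of the 5 in mice 1 and 2, and Tbce in mice 3, 4 and 5. Because Tbcel was picked for this contrast, its distance from the family is a description and carries no test.

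**Figure D3:**
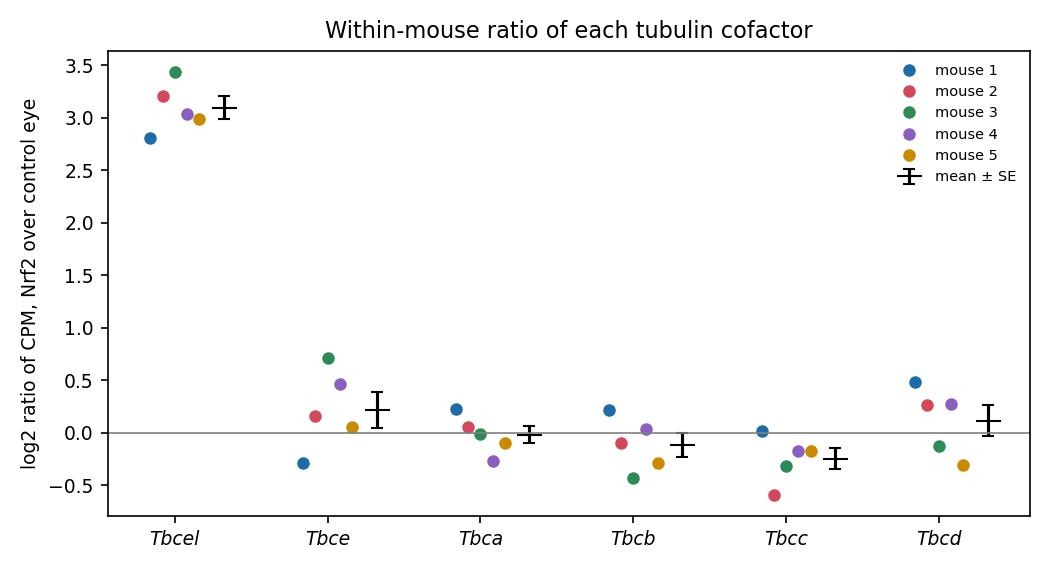
Log2 ratio of normalised CPM, Nrf2 eye over control eye (vertical axis), for the 6 tubulin cofactors. Coloured points are the 5 mice, and the black bars are their mean ± SE. The 5 Tbcel points lie between 2.80 and 3.44, and the points of the other 5 genes lie between -0.59 and 0.71.

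Levels of different genes were compared per length, as RPKM (reads per kb of exon, scaled as CPM are), and first in the control eyes. The control values of Tbcel are part of the fold change by which it was chosen, so its place in the order is a description, and tests are given only for pairs of other cofactors. Tbca stood at 54.4 ± 5.43, Tbcb at 51.4 ± 3.86 and Tbcc at 31.6 ± 9.68 (SD, n = 5). Tbcd followed at 7.34 ± 1.70, and Tbcel at 3.74 ± 0.92 and Tbce at 3.74 ± 0.41 were the lowest. Tbcb was above Tbcc (log2 difference 0.74) and Tbcc above Tbcd (2.09) in 5 of 5 control eyes, each with an exact paired permutation p of 0.063, the smallest that 5 pairs allow (0.104 after adjustment over the 5 neighbouring pairs). Tbca and Tbcb did not differ beyond their spread (0.08, exact permutation p = 0.625, adjusted p = 0.781). Tbcd was above Tbcel in 5 of 5 control eyes, by 0.97 ± 0.52 (SD), and Tbcel was above Tbce in 2 of 5, with a mean log2 difference of -0.02 ± 0.25 (SD).

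The length used matters for this order. With the longest transcript in place of all annotated exons, Tbca was above Tbcb by 0.41 and Tbcc above Tbcd by 1.35 on the log2 scale, each at the smallest exact permutation p of 0.063. The log2 difference of Tbcel minus Tbce became -0.55, so that the low pair changed from equal mean levels to Tbce as the higher. In either scale Tbcel and Tbce had the lowest mean levels per length in control eyes.

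In the Nrf2 eyes Tbcel averaged 31.8 ± 2.94 RPKM (SD, n = 5), next to Tbcb at 48.2 ± 6.02 and Tbcc at 26.4 ± 4.61. It lay below Tbcb in 5 of 5 Nrf2 eyes and above Tbcc in 3 of 5. This place depended on the length used: with the longest transcripts Tbcel averaged 53.9 RPKM in Nrf2 eyes, against 49.1 for Tbcb and 26.4 for Tbcc, and its lowest value, 46.6, was above the highest of Tbcc, 32.5. With that length Tbca averaged 69.3, Tbcd 13.4 and Tbce 10.9, and over all annotated exons they averaged 54.1, 7.97 and 4.46. As a share of the summed cofactor level, Tbcel went from 2.48% ± 0.75 in control eyes to 18.5% ± 2.16 in Nrf2 eyes, and with longest-transcript lengths from 3.53% to 24.2%. The sum of the other 5 was 148.5 in control and 141.2 in Nrf2 eyes, lower in 4 of 5 mice by a difference within the spread between mice (mean log2 ratio -0.07 ± 0.12 SD, exact paired permutation p = 0.25). The sum of all 6 was 152.2 and 172.9.

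**Figure D4:**
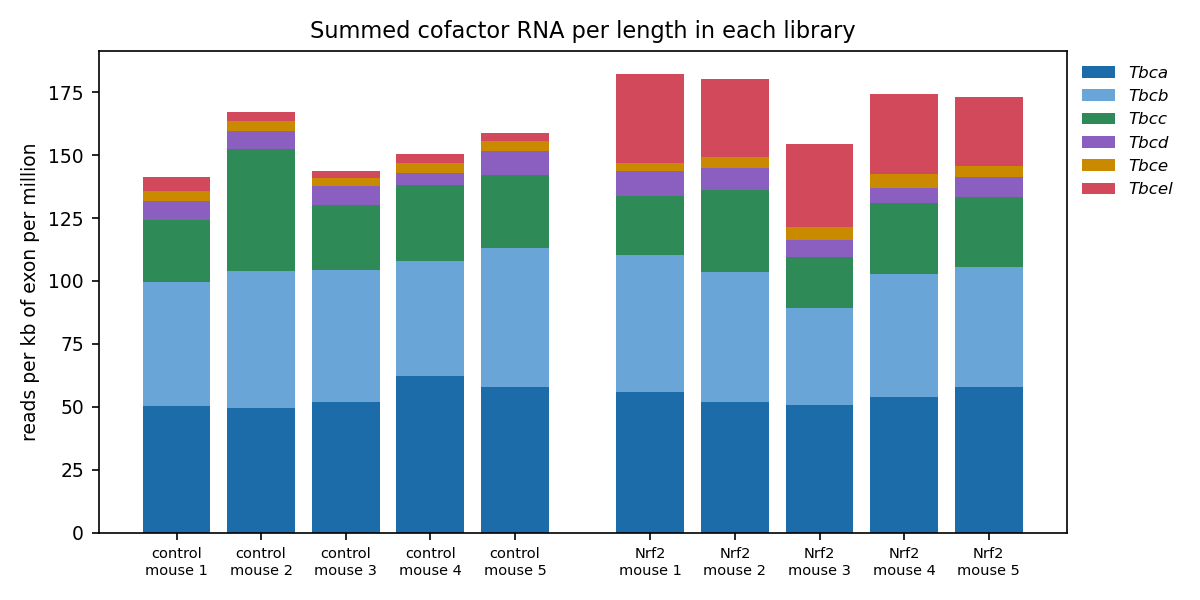
Summed level of the 6 tubulin cofactors in each of the 10 libraries, in RPKM (reads per kb of exon, scaled to library size, vertical axis), with GFP control eyes on the left and Nrf2 eyes on the right. Segments are genes. Tbcel, at the top, makes up 1.97% to 3.78% of the control columns and 15.9% to 21.5% of the Nrf2 columns, and the rest of each column lies between 121.3 and 163.7.

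Genes that overlap a cofactor or lie next to it were examined because reads without strand information could be counted for either gene. Of 18 such genes 12 were tested and 1 passed the threshold, against 6.33% of all tested genes. This was B3galnt2, an enzyme that adds sugars to dystroglycan, which overlaps the end of Tbce on the opposite strand. It had 23.1, 26.0, 28.0, 31.4 and 37.4 CPM in control eyes and 44.1, 48.3, 42.5, 62.2 and 61.0 CPM in Nrf2 eyes of mice 1 to 5, so that every Nrf2 eye was above every control eye, and 6.28% of all tested genes had groups without overlap. The fitted log2 change was 0.81 ± 0.08 SE, with an adjusted p of 0.00509 in edgeR. Whether reads of B3galnt2 entered the Tbce count was not tested.

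Around Tbcel the neighbours were nearly silent. Tecta, a protein of the inner ear that lies 12386 bases away on the same strand, had 0 to 2 counts in control eyes and 4 to 17 counts in Nrf2 eyes. It was too low for the main test, and its values did not overlap. With no filter on low counts edgeR gave an adjusted p of 0.0436, and DESeq2 gave 0.0314. Grik4, a glutamate receptor subunit on the other side, had 1 to 8 counts in control and 0 to 16 in Nrf2 eyes. The antisense gene Gm16322 and the miRNA gene Gm44311, both within Tbcel on the opposite strand, had 0 counts in every control eye and at most 10 and 3 counts in an Nrf2 eye. Against 3335 to 7504 Tbcel counts in the Nrf2 eyes, these are small.

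Next to Tbcc lies Prph2, a rod and cone outer segment protein, which had 3.62 to 1972 CPM in control eyes and 3.74 to 748.8 CPM in Nrf2 eyes, highest in mouse 2 in each group, as for Tbcc. Polr2i, opposite to Tbcb, had a log2 fold change of -0.24 (adjusted p = 0.388 with edgeR). The other tested neighbours, Gng4, Ggps1, Ap3b1, Capns1, Bicral, Zfp750, B3gntl1, Fn3k and Metrnl, did not pass the threshold either, although DESeq2 called Gng4 (adjusted p = 0.021), and Otp and Ovol3 had at most 3 counts in a library.

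Named lists of 85 genes covered the rest of the folding route, the tubulins, and genes listed as acting on tubulin, its mRNA or microtubules. Of the 85, 75 were tested and 9 passed the threshold (12%, against 6.33% of all tested genes). Of these 9, 8 were higher and 1 was lower in the Nrf2 eyes. Among the genes that hand tubulin to the cofactors or act beside them, none of 27 tested passed. Their median log2 fold change was -0.05, against -0.01 for all tested genes, and they ranged from -0.79 to 0.27. Of these 27, 4 had an unadjusted p under 0.05, and DESeq2 called 1, Unc119. By group, the median was -0.23 for 7 partners and homologs of the cofactors and -0.02 for 9 subunits of CCT. For 7 genes of prefoldin, with the prefoldin-like Uri1 among them, it was -0.09. For 4 helpers of CCT, phosducin-like genes and Pdcd5, it was -0.05. The most abundant per length were, in CCT, Cct5 (138.0 and 139.1 CPM in control and Nrf2 eyes) and Cct6a (163.4 and 159.3 CPM), in prefoldin Pfdn1 (61.5 and 61.3 CPM) and Pfdn5 (62.6 and 59.0 CPM), and among the helpers Pdcl (56.1 and 44.3 CPM, adjusted p = 0.117 in edgeR) and Pdcd5 (30.3 and 32.2 CPM). Arl2bp, which binds the GTPase that acts with TBCD, averaged 147.6 and 160.8 CPM (adjusted p = 0.585). Unc119, a carrier of lipid-modified proteins abundant in photoreceptors, averaged 389.2 ± 247.2 and 214.5 ± 110.8 CPM (SD, n = 5), a log2 ratio of -0.79 with an adjusted p of 0.118 in edgeR. The ratio of Unc119 was -0.51 without mouse 4 and -0.47 with the rod covariate.

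The clients of the cofactors, alpha and beta tubulin, differed from the folding genes in count: 5 of 12 tested passed the threshold as higher, against 3.6% of all tested genes, none passed as lower, and the median was 0.57 on the log2 scale. Tubb4a, a beta tubulin best known from the nervous system, had 53.0, 63.1, 28.5, 46.8 and 25.7 CPM in control eyes and 219.9, 342.7, 244.2, 311.0 and 279.4 CPM in Nrf2 eyes of mice 1 to 5. The groups did not overlap, and the fitted log2 change was 2.74 ± 0.22 SE, with an adjusted p of 0.000621 in edgeR. Tuba1c (156.7 to 314.9 CPM, 0.98 ± 0.06, adjusted p = 0.0017), Tuba4a (184.6 to 351.7 CPM, 0.92 ± 0.04, adjusted p = 0.00177) and Tubb4b (430.0 to 741.9 CPM, 0.78 ± 0.09, adjusted p = 0.00938) were higher in 5 of 5 mice. Tubb4b missed the threshold with the rod covariate, at a log2 fold change of 0.74 (adjusted p = 0.0586). Tubb5 rose by 0.47 ± 0.06 (adjusted p = 0.0237), a call lost without mouse 3, 4 or 5 (adjusted p = 0.0651 to 0.0769) and with the rod covariate (0.114), while the log2 fold change stayed between 0.46 and 0.51. The abundant Tuba1b (1127 and 1640 CPM, adjusted p = 0.0716), Tuba1a (327.0 and 466.4 CPM, adjusted p = 0.133) and Tubb2a (110.3 and 150.7 CPM, adjusted p = 0.071) did not pass in edgeR, although DESeq2 called each of them. DESeq2 also called the scarce Tubb3 (adjusted p = 0.149 in edgeR and 0.0317 in DESeq2). Tubb3 averaged 3.18 ± 5.76 CPM in control and 6.11 ± 7.57 CPM in Nrf2 eyes (SD, n = 5), a spread larger than the means. Tubulin genes are close copies of each other, so that reads may be split between them, and the difference between the folding genes and the tubulins was not tested. Gamma, delta and epsilon tubulins had no call among 4 tested in edgeR, with Tubg1 at 44.4 and 46.2 CPM and Tubg2 at 4.36 and 5.81 CPM, and only Tube1 had an unadjusted p under 0.05 (0.0388).

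Genes that modify or take apart microtubules gave 4 calls, 1 among 15 and 3 among 14 tested in the lists below, against 6.33% of all tested genes. Kif2a, a kinesin that depolymerises microtubules, had 12.2 to 16.2 CPM in control eyes and 25.2 to 44.8 CPM in Nrf2 eyes, with no overlap (log2 fold change 1.27 ± 0.11 SE, adjusted p = 0.00226 with edgeR), and it was the only call among 15 severing and depolymerising proteins, of which Stmn1 (60.8 and 58.2 CPM) and Katna1 (42.2 and 43.6 CPM) were the most abundant. Among 14 tested enzymes of the tubulin tail and of acetylation, Ttll7, a glutamylase, rose by 0.93 ± 0.18 (adjusted p = 0.0298), Agtpbp1, a deglutamylase, rose by 0.59 ± 0.09 (adjusted p = 0.0224), and Svbp, the partner of the vasohibins that remove the last tyrosine of alpha tubulin, fell by 0.53 ± 0.10 on the log2 scale (adjusted p = 0.0367). In edgeR Svbp lost its call when any 1 mouse was left out (adjusted p = 0.0545 to 0.164). It also lost it with no filter on low counts (0.0522) and with libraries thinned to the smallest total (0.0552). Ttll7 lost its call without mouse 2, 3, 4 or 5 (0.0663 to 0.117) and Agtpbp1 without mouse 2, 3 or 5 (0.06 to 0.0954). In these fits without 1 mouse, the log2 fold changes were -0.548 to -0.412 for Svbp, 0.845 to 1.033 for Ttll7 and 0.577 to 0.623 for Agtpbp1. The rod covariate also ended the calls of Svbp, at -0.41 (adjusted p = 0.144), and Ttll7, at 0.82 (adjusted p = 0.156). Sirt2, a tubulin deacetylase, averaged 104.8 and 95.8 CPM (adjusted p = 0.589). Ttc5 (42.3 and 38.4 CPM) and Cnot11 (32.5 and 29.4 CPM), listed for tubulin mRNA control, did not pass in edgeR. Sarm1, the least abundant of the 3 genes in this list, is not a known gene of tubulin mRNA control. It averaged 10.9 ± 12.3 CPM in control and 6.30 ± 8.05 CPM in Nrf2 eyes (SD, n = 5). In edgeR it did not pass (unadjusted p = 0.0127), and DESeq2 called it (adjusted p = 0.0347).

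**Figure D5:**
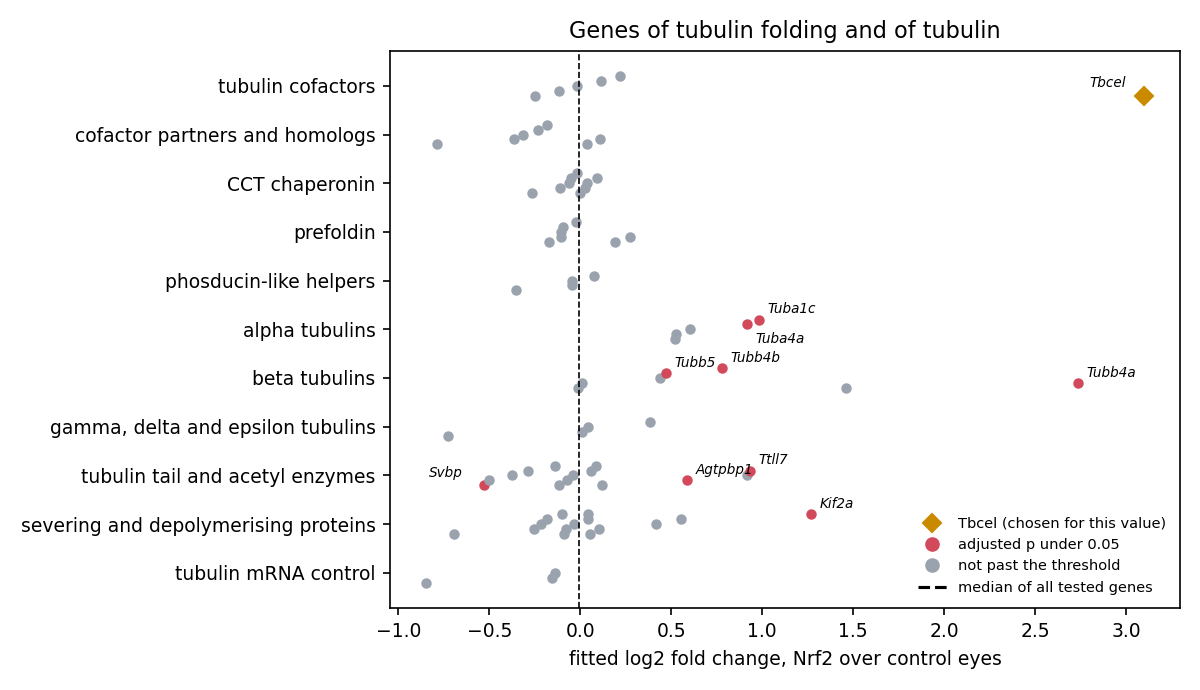
Fitted log2 fold change, Nrf2 over control eyes (horizontal axis), of each tested gene in the lists of tubulin folding and tubulin (rows). Red points passed an adjusted p of 0.05, grey points did not, the diamond is Tbcel, which was chosen for this value, and the dashed line is the median of all tested genes. The folding rows hold no red point, and the alpha and beta tubulin rows hold 5.

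The genes with a pattern most like that of Tbcel were found among 12007 tested genes with a mean of at least 5 CPM. Over the 10 libraries, which share the contrast for which Tbcel was chosen, Pearson's r of log2 CPM was 0.993 for Txnrd1, 0.992 for Acox2, 0.991 for Srxn1, 0.990 for Hmox1 and 0.990 for Creg1. All 5 were higher in the Nrf2 eye of 5 of 5 mice. Txnrd1, thioredoxin reductase, averaged 108.1 CPM in control and 1860 CPM in Nrf2 eyes, and Hmox1, haem oxygenase, averaged 10.03 and 692.5 CPM. Nfe2l2 had an r of 0.961, Tbce 0.501, Tbcd 0.183, Tbca -0.093, Tbcb -0.418 and Tbcc -0.498.

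Within groups the resemblance was to other genes. With each value taken as its deviation from the group mean over the 10 libraries, the highest r with Tbcel was 0.942 for Dpp7, 0.941 for Fzd7, 0.918 for Cep78, 0.916 for Ccdc60 and 0.916 for Mrs2. Of these, Dpp7 was higher in the Nrf2 eye of 5 of 5 mice (log2 fold change 0.70), and Cep78 was lower in all 5 (-1.05). The same measure was -0.28 for Nfe2l2, 0.156 for Tbce, -0.038 for Tbcd, -0.079 for Tbca, -0.229 for Tbcb and -0.592 for Tbcc. These are the highest of 12007 correlations over 10 libraries that share 5 mice, and they are given as a description.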

How the data were processed

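RNA was measured in 10 libraries from the 2 eyes of 5 mice. The authors deposited raw counts per Ensembl gene. By the study's methods, reads were checked with FastQC, aligned to mm10 with STAR and counted with featureCounts under bcbio-nextgen, and estimated in parallel with Salmon (0.8.2 per the submitters' notes). Which of these counts was deposited, the strand setting and the sequencing run of each library are not given in the sources used here, so reads of overlapping genes may be shared. Replicates are mice, and the pairing comes from the labels, which name the animal of each eye: deviations of the 2 eyes of a mouse from their group means correlated at 0.186 to 0.707, and those of other pairs of libraries at -0.421 to 0.28, with a median of -0.081.

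The deposited counts were tested with edgeR 4.0.16 (R 4.3.3): filterByExpr, TMM factors, mouse as a block, quasi-likelihood F test, Benjamini-Hochberg over 16362 genes, threshold 0.05. SE is the error of the mean of 5 log2 ratios, 1 per mouse, computed with a prior count of 2. Fold changes are normalised, printed CPM are not. Symbols, lengths and coordinates came from GENCODE M21 (47310 of 47729 rows matched). Levels per length (RPKM) were computed here as CPM per kb of exon. Shared sequence was counted as 31-base words of annotated exons. DESeq2 1.42.0, other filters, scalings, depths, a rod covariate and leaving out each mouse were the alternatives. The code was tested on simulated data.

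The members and lists were chosen with earlier results of these data known. Named genes are the members, Nfe2l2, their neighbours, up to 4 called genes and the 2 most abundant of each list, and the 5 most like Tbcel by either measure.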

Additional observations from a re-analysis of the deposited data

Results flagged for a closer look

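Of 12 sets of 5 values, the 6 cofactors in each group, 1 held a library far from the rest: Tbce in the GFP control eyes. The control eye of mouse 3 stood at 3.86 on the log2 CPM scale against 4.12 to 4.21 in the other control eyes, and its gap to the nearest of them made up 0.754 of the range of the group, above the critical value of 0.71 for 5 values. Chance alone gives 0.6 such sets among 12. Mouse 3 also had the highest within-mouse ratio of Tbce, 0.71. Without mouse 3, the log2 fold change of Tbce was 0.16 in place of 0.22, with an adjusted p of 0.756 in edgeR.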

How the results depend on the processing

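The log2 fold change of Tbcel ran from 3.07 to 3.21 over 12 alternatives, and its fitted distance from the median of the other 5 cofactors, 3.12, ran from 3.01 to 3.25. None of the other 5 was called in any of the 12. Without the replicate block by mouse, the number of genes called went from 1036 to 755, and the calls of Tubb5, Svbp and Agtpbp1 were lost (adjusted p = 0.112, 0.123 and 0.543). DESeq2 called 1812 of 19592 genes (9.25%), 15 of the pathway genes in place of 9 and 3 neighbours in place of 1 (B3galnt2, Gng4 and Tecta). With the rod covariate 437 genes and 5 pathway genes were called. With no filter on low counts 2 neighbours were called. Leaving out 1 mouse gave 584 to 857 genes, with 584, 613 and 683 without mouse 2, 4 and 5, and 5 to 10 pathway genes, with 5 without mouse 3 or 5. With longest-transcript lengths the control-eye log2 differences became 0.41 for Tbca over Tbcb, 1.35 for Tbcc over Tbcd and -0.55 for Tbcel over Tbce. The cause of these shifts was not tested. Depth limits the 6 untested neighbours, which had at most 17 counts in a library.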
